A study of Mus musculus with 11 samples.

Results

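Interferon response genes are the genes that cells switch on when interferons bind their receptors, and 33 of them, chosen by gene symbol, are described here in 11 mouse mammary tumours. A probe carried the symbol of 32 of the 33, all but Ifi44, among 19057 genes with a probe, and the probe with the highest mean was taken for each. Of the 32, 29 lay in the brighter 50% of features and were tested with the other features, 14726 in all. Ifit1, Ifih1 and Xaf1 fell below that limit, a log2 intensity of 7.31, and are given by value only.

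The tumours came from female mice aged 12 weeks, 5 of them PyMT/SIRT6 and 6 PyMT, with 1 array per tumour. Both groups carry the transgene for the polyoma virus middle T oncogene, which makes the mammary gland form tumours. PyMT/SIRT6 mice also carry the Sirt6BAC allele, an added copy of Sirt6 on a bacterial artificial chromosome that overexpresses the functional protein, a nuclear deacylase of chromatin. The labels do not name the promoter of the oncogene or the strain background. They also leave unsaid whether any 2 tumours shared a mouse, and p-values then cover only the variation among these 11 samples. RNA of whole tumours was measured on Illumina Mouse WG-6 v2.0 arrays, in which fewer cells of a type and less RNA per cell cannot be told apart. All values below are log2 intensities or differences between them, and levels of different probes are not compared.

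Type I interferons signal through JAK kinases to a complex that holds STAT2 and IRF9 and binds the interferon-stimulated response element, a DNA motif in the promoters of many of these genes. Interferon gamma acts more through a second motif, the gamma-activated site, and is a strong inducer of the guanylate-binding proteins and of the immunity-related GTPases. The products block virus replication, sense viral nucleic acids and raise antigen presentation, and tumours can express them without infection.

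Promoter sequences of the listed genes were taken from RefSeq (GRCm38.p6). A window of 250 bases before to 50 bases after a start was at hand for 24 of the 33 genes. The core of the response element (GAAA, any 2 bases, GAAA), searched on both strands, occurred in a window of 15 of the 24 genes (62.5%), against 3.99% of all 27025 genes with a window. The core of the gamma-activated site, TTCNNNGAA, which reads the same on both strands, occurred in 6 of the 24 (25%), against 9.55% of all genes. The genes were listed as interferon-induced, so a high share with the response element could come from that choice alone and says nothing about these tumours. The matches describe letters in these windows and do not show that a factor binds there, and overlapping matches were counted each. The stretches are shown for 6 of the genes whose match lies before the start and outside annotated genes, and for Apol9a, the gene outside the list most alike to the list. Each is written 5′ to 3′ on the strand of the gene, and capitals mark the core in either orientation.
Isg15 (chr4:156200855-156200916, minus strand, 3 overlapping matches): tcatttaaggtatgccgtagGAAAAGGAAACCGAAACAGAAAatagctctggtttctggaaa
Rsad2 (chr12:26456543-26456592, minus strand): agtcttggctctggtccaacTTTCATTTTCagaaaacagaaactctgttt
Bst2 (chr8:71537567-71537622, minus strand, 2 overlapping matches): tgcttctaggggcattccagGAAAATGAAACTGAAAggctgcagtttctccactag
Gbp2 (chr3:142620584-142620633, plus strand): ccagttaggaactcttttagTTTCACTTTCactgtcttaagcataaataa
Igtp (chr11:58199502-58199551, plus strand): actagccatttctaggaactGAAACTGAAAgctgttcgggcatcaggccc
Irgm1 (chr11:48871421-48871470, minus strand, 2 overlapping matches): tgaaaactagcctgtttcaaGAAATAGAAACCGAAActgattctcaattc
Apol9a (chr15:77411104-77411159, minus strand, 2 overlapping matches): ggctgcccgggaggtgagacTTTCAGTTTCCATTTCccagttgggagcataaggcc

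Over the whole series, Sirt6 lay between 8.19 and 8.64 in PyMT/SIRT6 tumours and between 7.64 and 7.88 in PyMT tumours, with no overlap. Of all features 0.292% lay wholly higher in PyMT/SIRT6 tumours. Sirt6 differed by 0.61 ± 0.09 (SE), with a limma adjusted p of 0.0574, above the threshold of 0.05. Arrays correlated at 0.944 to 0.992 over the tested features. In 4 tumours (PyMT/SIRT6 replicates 1, 4, 5; PyMT replicate 5) the mean of the skeletal muscle markers was 10.01 or higher, and in the other 7 it lay between 7.47 and 8.54. Of 10 tumour epithelium markers 9 were above the limit (among them Krt8 and Krt18), while the probe of Epcam was not. In limma with Benjamini-Hochberg adjustment 2 of 14726 features passed an adjusted p of 0.05 (0.0136%), Tle6 and Tle5, both higher in PyMT/SIRT6 tumours.

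The level of the interferon response genes varied between tumours of the same genotype by more than the genotype means differed. The mean over the 29 tested genes was 9.02, 8.67, 9.58, 8.74 and 9.18 in PyMT/SIRT6 replicates 1 to 5 and 9.41, 9.62, 8.81, 9.10, 9.39 and 9.30 in PyMT replicates 1 to 6. PyMT replicate 2 and PyMT/SIRT6 replicate 3 were the highest of all, and PyMT/SIRT6 replicates 2 and 4 and PyMT replicate 3 the lowest, so both genotypes held high and low tumours. The genotype means were 9.04 ± 0.37 in PyMT/SIRT6 (SD, n = 5) and 9.27 ± 0.28 in PyMT tumours (SD, n = 6), a difference of −0.23 beside a pooled SD of 0.32. Genotype accounted for 13.9% of the variance of this mean between these tumours, a share not corrected for their small number.

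**Figure D1:**
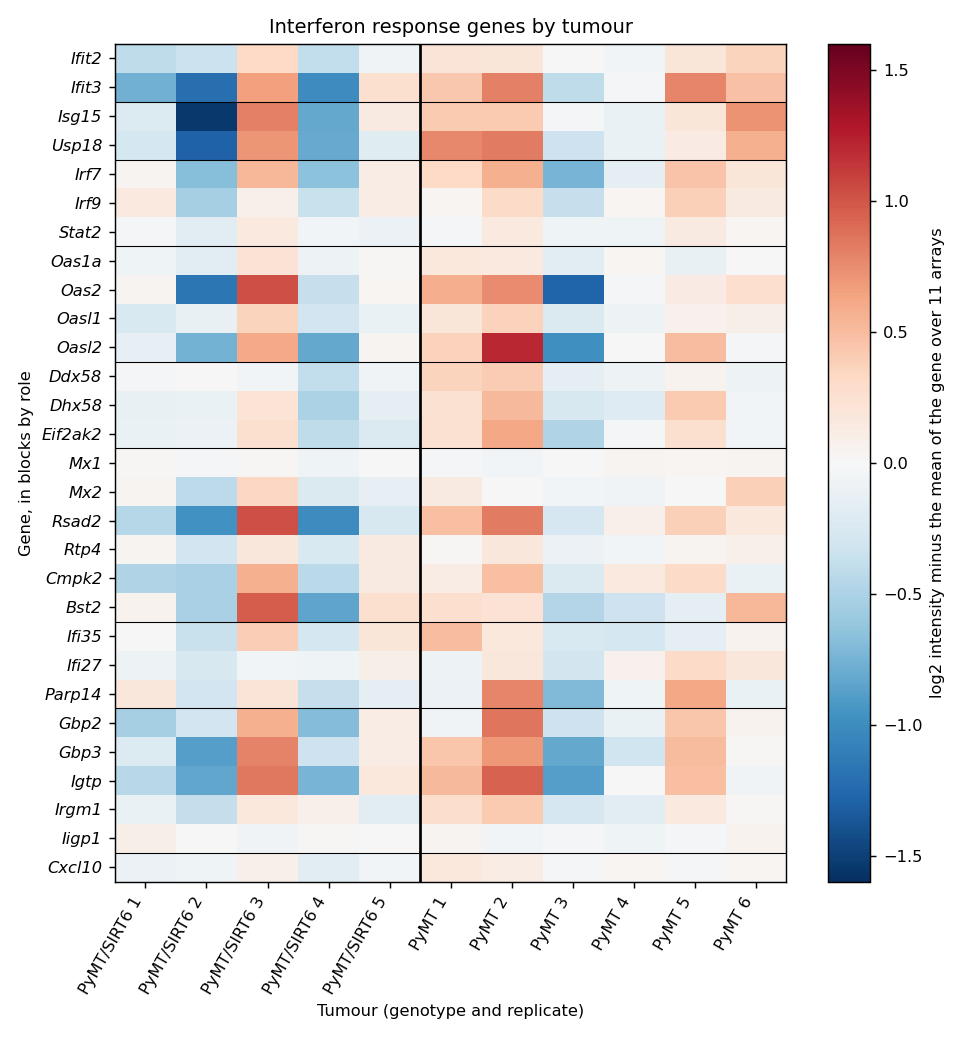
Log2 intensity of each tested gene in each tumour, minus the gene's mean over 11 arrays (colour scale), with PyMT/SIRT6 tumours left and PyMT tumours right of the vertical line and genes in blocks by role. PyMT/SIRT6 replicate 3 and PyMT replicate 2 are red in most rows, and PyMT/SIRT6 replicates 2 and 4 and PyMT replicate 3 are blue in most rows.

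The same tumours were at the ends for most genes. Among PyMT/SIRT6 tumours, replicate 3 was the highest in 24 of the 29 genes, and replicate 2 was the lowest in 16 and replicate 4 in 11. Among PyMT tumours, replicate 2 was the highest in 18 genes and replicate 3 the lowest in 22.

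The ISG15 system had some of the widest ranges. ISG15 is a ubiquitin-like protein that is attached to other proteins, and USP18 removes it and also restrains the type I interferon receptor. Isg15 (probe ILMN_1256257) was at 10.33, 9.01, 11.35, 9.73 and 10.69 in PyMT/SIRT6 replicates 1 to 5, against a lowest value of 10.44, a median of 10.85 and a highest of 11.26 in the 6 PyMT tumours. Replicate 3 of PyMT/SIRT6 lay above every PyMT tumour and replicates 1, 2 and 4 below every PyMT tumour. Within PyMT/SIRT6 the range was 5.07-fold, and within PyMT it was 1.77-fold. The difference was −0.60 ± 0.33 (SE; 95% interval −1.31 to 0.12), with a limma adjusted p of 0.983. Usp18 (ILMN_3131679) was at 9.81, 8.80, 10.79, 9.28 and 9.90 in the PyMT/SIRT6 tumours, against a lowest of 9.76, a median of 10.44 and a highest of 10.93 in the PyMT tumours. Only PyMT/SIRT6 replicates 2 and 4 lay below all PyMT tumours. Its difference was −0.69 ± 0.32 (SE; limma adjusted p = 0.983), and a second probe (ILMN_3054914) differed by −0.44.

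The IFIT proteins bind viral RNA and block its translation. Ifit3 (ILMN_2944666) was at 9.59, 9.16, 11.02, 9.35 and 10.62 in PyMT/SIRT6 tumours, against a lowest of 9.96, a median of 10.81 and a highest of 11.16 in PyMT tumours. PyMT/SIRT6 replicates 1, 2 and 4 were below every PyMT tumour, while replicates 3 and 5 were within the PyMT range. The difference of −0.75 ± 0.34 (SE) was the largest of the 29 genes, a level in PyMT/SIRT6 tumours of 0.594-fold that in PyMT tumours (95% interval −1.48 to −0.03 in log2; limma unadjusted p = 0.0428, adjusted p = 0.983; exact two-sided permutation p = 0.0931). A second Ifit3 probe differed by −0.48. Ifit2 averaged 8.08 ± 0.31 in PyMT/SIRT6 (SD, n = 5) and 8.40 ± 0.15 in PyMT tumours (SD, n = 6). It had the lowest unadjusted p of the 29 (limma unadjusted p = 0.0276, adjusted p = 0.983; exact permutation p = 0.0584). The Ifit1 probe stayed between 7.10 and 7.30 in PyMT/SIRT6 and between 7.21 and 7.29 in PyMT tumours, below the limit.

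IRF7, IRF9 and STAT2 are the transcription factors of the list, IRF7 being itself induced by interferon and needed for the amplification of type I interferon. Irf7 averaged 8.76 ± 0.53 in PyMT/SIRT6 and 9.00 ± 0.49 in PyMT tumours (SD), and PyMT replicates 2 and 3 alone spanned a 2.48-fold range. Irf9 averaged 10.06 ± 0.31 in PyMT/SIRT6 and 10.25 ± 0.27 in PyMT tumours, and Stat2 7.73 ± 0.12 in PyMT/SIRT6 and 7.79 ± 0.10 in PyMT tumours. Their limma adjusted p-values were all 0.983. The brightest Irf9 probe differed by −0.19 and a second (ILMN_2636339) by −0.02.

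The OAS proteins are sensors of double-stranded RNA whose active members make a messenger that activates the nuclease RNase L. OASL2 is such an enzyme in the mouse, while OASL1 lacks the activity. Oas2 (ILMN_2670150) had the largest pooled SD of the list, 0.75, while Isg15 had the wider range over all tumours (5.07-fold, against 4.98-fold for Oas2). It was at 8.99, 7.80, 9.98, 8.58 and 8.98 in PyMT/SIRT6 tumours, against a lowest of 7.66, a median of 9.15 and a highest of 9.70 in PyMT tumours. The range was 4.53-fold within PyMT/SIRT6 and 4.10-fold within PyMT, and the difference between them was −0.15 ± 0.38 (SE; 95% interval −0.98 to 0.68). Oasl2 (ILMN_2954868) was at 9.42, 8.80, 10.16, 8.73 and 9.60 in PyMT/SIRT6 tumours, against 8.57, 9.74 and 10.76 as the lowest, median and highest PyMT values. PyMT tumours held both its extremes, 4.56-fold apart. Its difference was −0.39 ± 0.34 (SE), with a limma adjusted p of 0.983. Oasl1 differed by −0.15 ± 0.13 and Oas1a, close to the limit, by −0.03 ± 0.08 (SE). Oas1a has a near-identical relative, Oas1g, and whether the probes tell them apart was not tested.

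Among the sensors of viral RNA, Ddx58 encodes RIG-I, Ifih1 encodes MDA5, and Dhx58 encodes LGP2, their regulator. Eif2ak2 encodes PKR, a kinase that halts translation when it binds double-stranded RNA. Ddx58 differed by −0.18 ± 0.12, Dhx58 by −0.25 ± 0.16 and Eif2ak2 by −0.21 ± 0.18 (SE), each with a limma adjusted p of 0.983. For these 3 genes PyMT/SIRT6 replicate 4, and not replicate 2, was the lowest of its genotype. Ifih1 stayed between 7.20 and 7.39 in PyMT/SIRT6 and 7.17 and 7.32 in PyMT tumours.

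Among the other antiviral effectors the pooled SD within genotype was 0.62 for Rsad2 and 0.04 for Mx1, the narrowest of the list. Rsad2, which encodes viperin, an enzyme that makes a chain-terminating nucleotide, was at 9.68, 9.17, 11.16, 9.13 and 9.88 in PyMT/SIRT6 tumours, against 9.87, 10.41 and 10.97 as the lowest, median and highest PyMT values. Replicate 3 of PyMT/SIRT6 was above all PyMT tumours, replicates 1, 2 and 4 were below all of them, and the difference was −0.61 ± 0.32 (SE; limma adjusted p = 0.983). Cmpk2, a nucleotide kinase that neighbours Rsad2 in the genome, differed by −0.26 ± 0.20, and Mx2, a dynamin-like GTPase, by −0.15 ± 0.12 (SE). Bst2 (tetherin, which holds budding virus at the cell surface) averaged 8.65 ± 0.71 in PyMT/SIRT6 and 8.68 ± 0.39 in PyMT tumours, a difference of −0.03 ± 0.29 (SE) beside a 3.52-fold range over all tumours. Rtp4 differed by −0.07 ± 0.09. Mx1 (ILMN_2707870), at 7.33, 7.28, 7.32, 7.24 and 7.32 in PyMT/SIRT6 tumours and 7.27 to 7.36 around a median of 7.32 in PyMT tumours, lay at the limit. Such dim probes understate any change in RNA.

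Genes of less defined role gave small differences. Parp14, an ADP-ribosyltransferase, differed by −0.16 ± 0.23, Ifi27 by −0.13 ± 0.11 and Ifi35 by −0.02 ± 0.17 (SE), with limma adjusted p-values from 0.983 to 0.995. Xaf1 stayed between 7.21 and 7.29 in PyMT/SIRT6 and 7.23 and 7.31 in PyMT tumours.

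The guanylate-binding proteins and immunity-related GTPases attack the membranes around intracellular pathogens. Igtp (ILMN_2593554) was at 9.48, 9.09, 10.77, 9.18 and 10.10 in PyMT/SIRT6 tumours, against 9.04, 10.17 and 10.86 as the lowest, median and highest PyMT values. PyMT replicate 3 was the lowest and PyMT replicate 2 the highest of all tumours, 3.54-fold apart, and the genotypes differed by −0.37 ± 0.34 (SE). Gbp2 differed by −0.32 ± 0.25, Gbp3 by −0.19 ± 0.31 and Irgm1 by −0.16 ± 0.14 (SE). Iigp1 (ILMN_2612776), at 7.44, 7.33, 7.28, 7.36 and 7.35 in PyMT/SIRT6 tumours and 7.27 to 7.40 around a median of 7.32 in PyMT tumours, was near the limit and the only tested gene with a positive difference, 0.02 ± 0.03 (SE).

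Cxcl10, a chemokine that draws T cells, was dim. It was at 7.28, 7.30, 7.44, 7.19 and 7.32 in PyMT/SIRT6 tumours, against a lowest of 7.34, a median of 7.39 and a highest of 7.53 in PyMT tumours. Only PyMT/SIRT6 replicate 3 lay inside the PyMT range. The difference was −0.11 ± 0.05 (SE; limma unadjusted p = 0.0332, adjusted p = 0.983; exact permutation p = 0.0628).

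**Figure D2:**
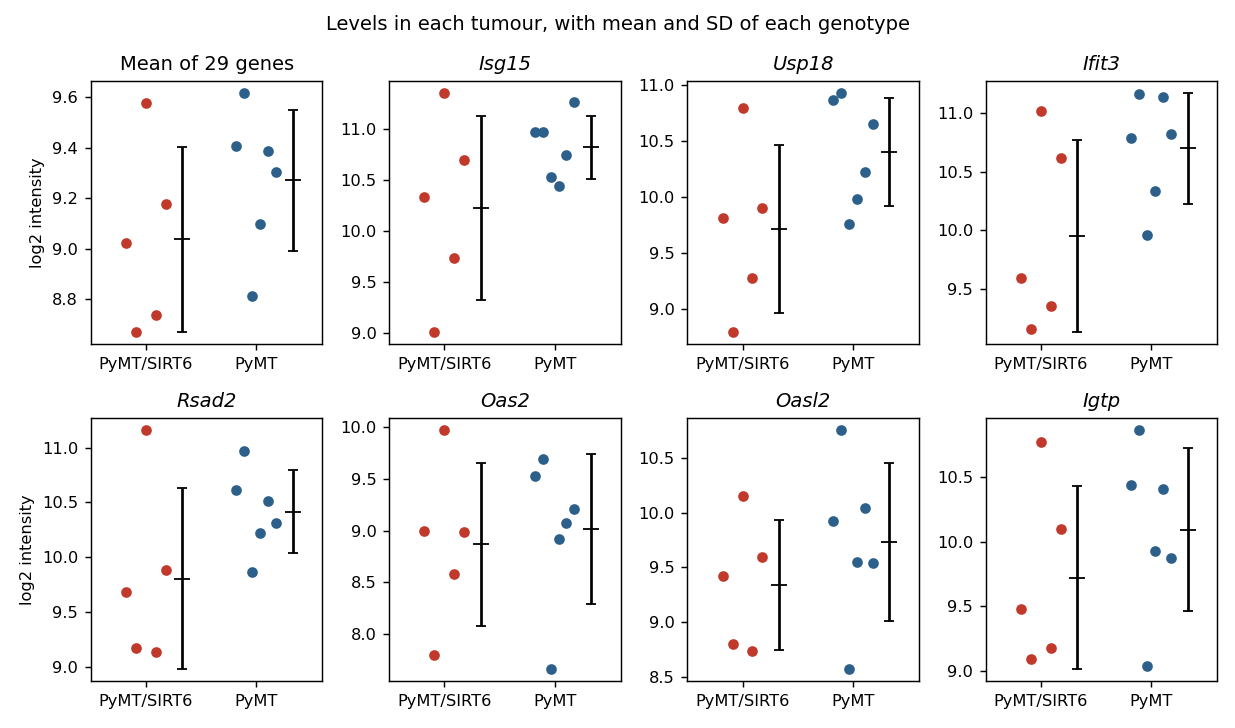
Log2 intensity in each tumour (points) for the mean of the 29 tested genes and for 7 genes, with the mean and SD of each genotype (bars beside the points), PyMT/SIRT6 left and PyMT right. The points of the 2 genotypes overlap in every panel.

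Against this spread, no gene of the list passed in the comparison of PyMT/SIRT6 with PyMT. Of 29 tested genes 0 had a limma adjusted p under 0.05, and adjusted p-values ran from 0.983 to 0.997. At an unadjusted p under 0.05, limma gave 3 lower (Ifit2, Ifit3 and Cxcl10) and 0 higher, where 2.39% of all features were lower and 2.04% higher. In 28 of the 29 genes the PyMT/SIRT6 mean was the lower, against 53.1% of all features, and over all 32 genes with a probe the count was 30. The median difference was −0.18, against −0.01 over all tested features. Since the genes move together between tumours, these 28 are not independent observations. With 1 array left out the count stayed at 26 to 29, apart from 22 without PyMT/SIRT6 replicate 2, and it was 24 without the 4 tumours high in skeletal muscle markers. The median difference was −0.10 without PyMT/SIRT6 replicate 2, −0.11 without PyMT replicate 2 and −0.31 without PyMT replicate 3. It was −0.09 without the muscle-high tumours and −0.33 with the mean of the T and NK cell markers as a covariate. Leaving out the muscle-high tumours left only replicates 2 and 3 of PyMT/SIRT6, with means over the 29 genes of 8.67 and 9.58. Muscle content and the choice of tumours cannot be told apart there.

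The 2 genotypes overlapped in all 32 genes, where 0.197% of all features lay wholly lower and 0.292% wholly higher. Each of the 29 differences was smaller than the range within PyMT and than the range within PyMT/SIRT6. In 4 genes (Ifit2, Cxcl10, Ifit3 and Usp18) it was larger than the pooled SD between tumours of the same genotype. That share of the 29 is close to the 12.9% of all features. That count was 13 without PyMT/SIRT6 replicate 3 or without PyMT replicate 3 and 8 without PyMT replicate 4. It was 2 without PyMT/SIRT6 replicate 2 or 4 or PyMT replicate 2, and 0 without the 4 tumours high in skeletal muscle markers. The share of all features was not computed for these omissions, so the counts show only how far single tumours move them. The 95% intervals of the brighter genes remained wide, so differences of the size of −1.31 for Isg15 or of 0.68 for Oas2 lie within them.

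**Figure D3:**
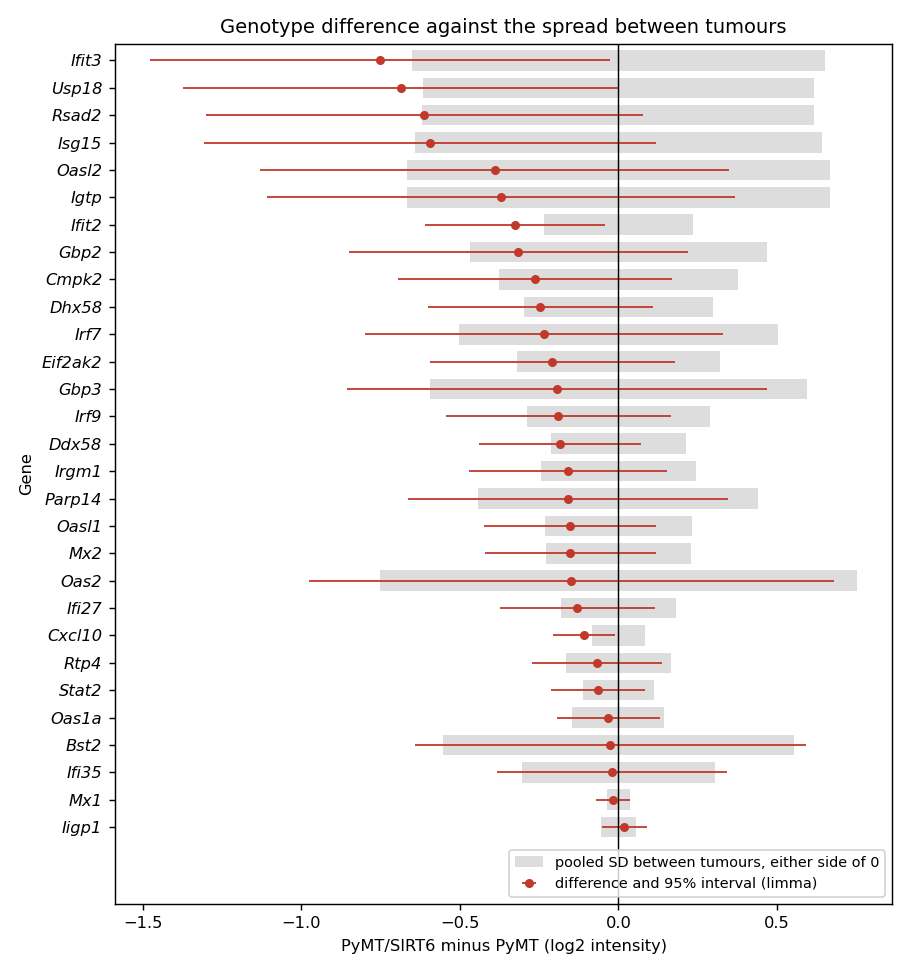
Difference PyMT/SIRT6 minus PyMT in log2 intensity with its 95% interval from limma (points and lines), over grey bars that show the pooled SD between tumours of the same genotype on either side of 0. Most points lie inside their grey bar, and the intervals of 26 of 29 genes include 0.

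The spread itself was wide for the level of the probes. The pooled SD within genotype had a median of 0.30 over the 29 genes, against 0.13 over all features, and 12.2% of all features had a larger SD than that median. Spread depends on level, so each gene was also set beside the 1000 features nearest to it in mean intensity. The SD was above the median of these in 26 of 29 genes and above 90% of them in 13. Oasl2 (98.3%), Oas2 (98.2%), Gbp3 (97.7%) and Igtp (97.4%) stood highest, and Mx1 (12.9%), Ifi27 (34%) and Stat2 (41.8%) lowest. Over all tumours 15 genes ranged over more than 2-fold, where 11.2% of all features did, and 6 of them over more than 4-fold.

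**Figure D4:**
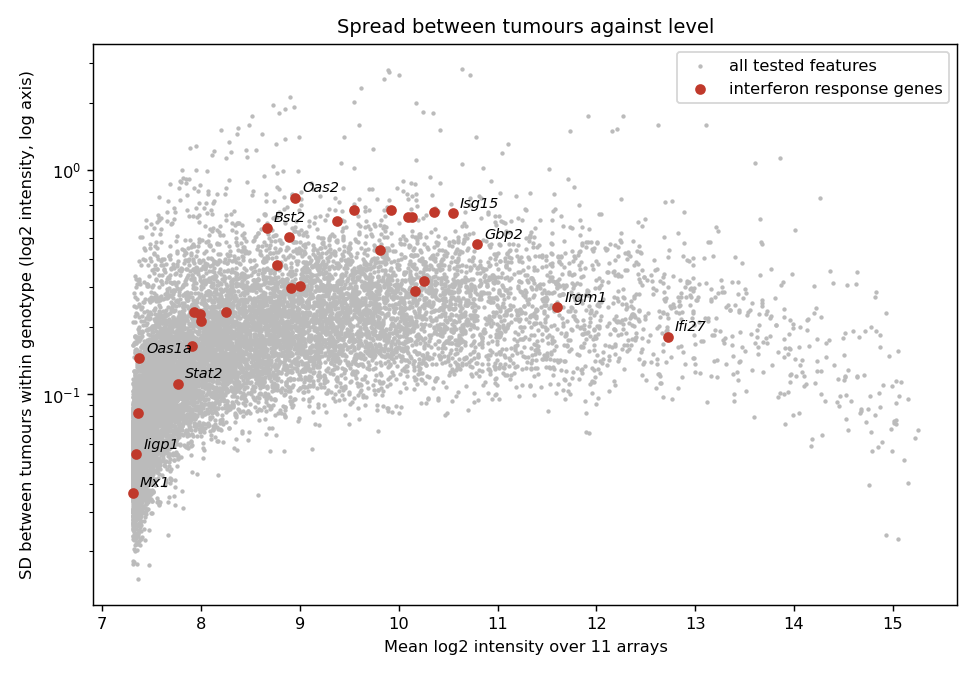
SD of log2 intensity between tumours of the same genotype (vertical, log axis) against mean log2 intensity over 11 arrays (horizontal) for all tested features (grey) and the 29 interferon response genes (red). Most red points lie in the upper part of the grey cloud at their level, and Mx1, Ifi27 and Stat2 lie in the lower part.

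The SD within PyMT/SIRT6 was larger than that within PyMT in 22 of the 29 genes, where 45.0% of all features showed this order. The median SDs over the genes were close, at 0.31 in PyMT/SIRT6 and 0.30 in PyMT tumours. The count rested on PyMT/SIRT6 replicate 3, without which it was 10 of 29, where 43.7% of all features showed this order. Isg15 had the SDs 0.90 in PyMT/SIRT6 and 0.31 in PyMT tumours, while Parp14 had 0.27 in PyMT/SIRT6 and 0.54 in PyMT tumours.

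The genes co-varied between tumours. With genotype means removed, Pearson r over the 11 tumours had a median of 0.69 over the 406 pairs of tested genes (median Spearman rho 0.65), against 0.00 over all pairs of features. It was above 0.5 in 75.1% of the pairs, against 11.6% of all pairs. Within the 6 PyMT tumours alone the median r was 0.69. All pairs share the same 11 arrays, and the median was 0.61 without PyMT/SIRT6 replicate 3.

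**Figure D5:**
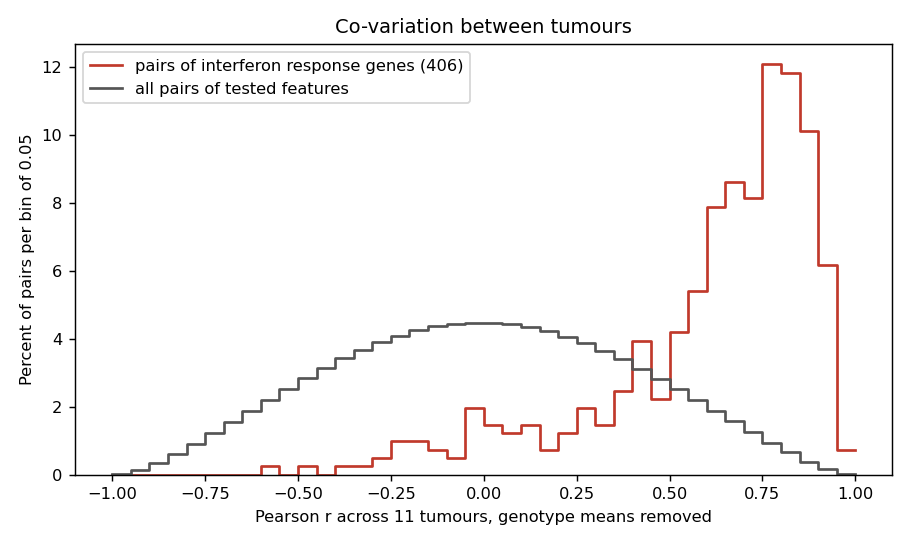
Percent of gene pairs (vertical) by Pearson r across the 11 tumours with genotype means removed (horizontal), for the 406 pairs of interferon response genes (red) and all pairs of tested features (grey). The red line peaks between 0.75 and 0.80 and the grey line near 0.

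The closest pairs were Oasl2 with Igtp (r = 0.96), Gbp3 with Igtp (0.96), Irf7 with Oasl2 (0.95) and Irf7 with Gbp3 (0.94), each over 11 tumours. Irf7 followed the mean of the other genes most closely (r = 0.97), then Igtp (0.96) and Gbp3 (0.95). Members of a class also paired well, as Isg15 with Usp18 (0.92), Rsad2 with Cmpk2 (0.91) and Irf7 with Irf9 (0.91). Isg15, a classic type I interferon target, and Igtp, a classic interferon gamma target, correlated at 0.72, and Isg15 and Parp14 at 0.38. Near the limit of brightness, r to the mean of the others was −0.14 for Iigp1 and 0.16 for Mx1, but 0.83 for Oas1a and 0.71 for Cxcl10. The median r to the other genes was 0.83 in the 13 tested genes with the response element core in a window and 0.84 in the 7 without it.

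Of 27 further probes of the same genes 17 were above the limit, 16 of these differed in the negative direction, and their r to the brightest probe of the gene had a median of 0.85. The second probes of Gbp3 (0.95), Ifit3 (0.96) and Usp18 (0.93) followed the first closely, while dim probes of Parp14 (0.33 and 0.46), Ddx58 (0.46) and Dhx58 (0.38) had lower r.

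Outside the list, other interferon genes were taken from a list of 91, of which 85 had a probe and 61 were tested. Of 8 interferon ligand genes 1, Ifna1, was above the limit, at 7.39 ± 0.05 in PyMT/SIRT6 and 7.47 ± 0.08 in PyMT tumours (SD), and the probes of Ifnb1 and Ifng were below it. The alpha interferon genes are near-identical, and whether the probe tells them apart was not tested. The 5 tested receptor genes had positive differences, from 0.02 for Ifnar2 to 0.22 for Ifngr2. Of 9 tested signalling genes 6 were lower and 3 higher, and of 10 nucleic acid sensing genes 5 were lower and 5 higher. Of 36 further induced genes 29 were lower and 7 higher. Over all tested features 53.1% had the lower mean in PyMT/SIRT6 tumours. In limma 0 of the 61 had an adjusted p under 0.05. At an unadjusted limma p under 0.05 there were 5 lower and 1 higher, where 2.39% of all features were lower and 2.04% higher. Those were the galectin-binding protein gene Lgals3bp (−0.62 ± 0.28), Gbp7 (−0.14 ± 0.06), the kinase Jak1 (−0.13 ± 0.06), the helicase Mov10 (−0.12 ± 0.05), the nuclease Isg20 (−0.07 ± 0.03) and, higher, Parp9 (0.11 ± 0.04), each with a limma adjusted p of 0.983 (SE). Apart from Lgals3bp these probes were dim, with genotype means between 7.28 (Isg20 in PyMT/SIRT6) and 7.59 (Jak1 in PyMT).

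Many induced genes of that second list followed the 29 genes. The r to the mean of the standardised 29 genes, with genotype means removed, was 0.97 for Phf11d, 0.97 for Oas1g and 0.92 for Lgals3bp, and from −0.15 (Ifnlr1) to 0.36 (Ifngr1) for the 5 receptor genes. For kinases of the pathway it was −0.17 (Jak2), −0.18 (Tbk1), −0.24 (Tyk2), −0.35 (Jak1) and −0.79 (Ikbke). The Ikbke probe was dim, between 7.29 and 7.51 with a 1.16-fold range, and 7.49% of all named genes had an r under −0.5. For the other tested signalling and sensing genes r ran from −0.40 (Sting1) to 0.53 (Irf8), with Myd88 at 0.50. Over the second list r was above 0.5 in 29 of the 61 genes, against 6.82% of all 11368 named genes. Of the 100 named genes closest to the mean, 21 were from the 29 genes and 14 from the second list. Each of the 29 genes is itself part of that mean, which raises its r, while genes of the second list are not.

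The 10 genes outside both lists that were most alike over the 11 tumours were led by the apolipoprotein L genes Apol9a (r = 0.99) and Apol9b (0.99), near-identical copies that the probes may not tell apart. They were followed by Trim34a (0.92), Epb41l5 (0.89), Vps4a (0.89), Enpp4 (0.88), Dusp10 (0.88), B2m (0.88), Ifi30 (0.87) and B3galt4 (0.87). B2m encodes the light chain of MHC class I and ranged over 2.64-fold between tumours. Over the 10 genes the range ran from 1.21-fold (Epb41l5) to 3.66-fold (Apol9a), so a high r did not mean a wide spread. Of the 10, 9 had a promoter window and 4 held the response element core in it, among them Apol9a, whose stretch is printed above. In limma Apol9a differed by −0.45 ± 0.32 and Apol9b by −0.40 ± 0.22 (SE), with adjusted p-values of 0.983.

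The mean of the 29 genes was set beside the means of 11 marker lists of cell types over the 11 tumours, with genotype means removed. The highest r was that of the tumour epithelium list (r = 0.69, rho = 0.49; 0.42 without PyMT replicates 2 and 3, the tumours farthest out on that list). Within the 6 PyMT tumours alone it was 0.89, and for the other lists it ran from −0.45 (neutrophils) to 0.40 (plasmacytoid dendritic cells). The mean of the tumour epithelium list lay between 10.29 and 10.72 in PyMT/SIRT6 and between 10.10 and 10.95 in PyMT tumours (summed intensity 16670 to 25035 in PyMT/SIRT6 and 14630 to 29706 in PyMT tumours). The T and NK cell list had 9 of 18 genes above the limit, Cd4 and Cd8a not among them, and lay between 8.10 and 8.34 in PyMT/SIRT6 and 7.93 and 8.25 in PyMT tumours (summed intensity 3733 to 5125 in PyMT/SIRT6 and 3268 to 5279 in PyMT tumours). All 9 had positive differences, where 53.1% of all features had negative ones. Of the 9, 3 had an unadjusted limma p under 0.05, where 2.04% of all features were higher at that p. The r of the T and NK cell list was 0.33 (rho = 0.42), and 0.11 without the 2 tumours farthest out. The macrophage list, 16 of 18 genes above the limit, had an r of 0.06 (rho = 0.19; 0.34 without the 2 farthest), and the plasmacytoid dendritic cell list, 6 of 8 genes, 0.04 (rho = 0.09; 0.40 without the 2 farthest). In the 4 tumours high in skeletal muscle markers the mean of this last list lay between 8.39 and 8.56. In the other 7 it lay between 7.68 and 7.94, so its r may not describe those cells. Of the 16 macrophage genes 15 were higher in PyMT/SIRT6 tumours and 1 lower, and 1 of the higher had an unadjusted limma p under 0.05. The skeletal muscle list had an r of 0.04 (rho = 0.06; −0.21 without the 2 farthest). For fibroblasts and matrix r was 0.13, and 0.43 without the 2 farthest, near the 0.42 of the tumour epithelium list without its own 2 farthest. For endothelium r was −0.51 (−0.62 without the 2 farthest), for adipocytes 0.21 (0.17), for neutrophils −0.09 (−0.20) and for proliferation −0.13 (−0.21). For B and plasma cells, with 1 gene above the limit, it was −0.56 (−0.04 without the 2 farthest). Whether the makeup of the tumours has a part in the spread of the interferon response genes was not tested. With genotype means removed, Sirt6 itself had an r of −0.35 to the mean of the 29 genes (rho = −0.34; −0.41 without the 2 tumours farthest out).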

How the data were processed

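The deposited table holds probe intensity values on a linear scale, per the labels from biotinylated cRNA on Illumina Mouse WG-6 v2.0 arrays. The authors' background correction and normalization had a method not given in the sources used here. Sorted values of the 11 arrays agreed within 1.08%, the lowest was 117 and the highest 40180.3, so arrays were not scaled again and no background subtraction was visible. Probes were named from the platform annotation (34885 of 45281 with 1 symbol, 18 with several, 10378 with none), matched to RefSeq GRCm38.p6 gene identifiers for 34807. The probe with the highest mean was kept per gene, giving 29453 features, and the brighter 50% on the log2 scale were tested (14726). Genotypes, taken from the labels, entered a limma fit (version 3.58.1, R 4.3.3; lmFit, eBayes with trend, no covariate), with Benjamini-Hochberg adjustment over all tested features. The fit was tested on simulated data. For single genes a two-sided exact permutation test used all 462 splits (SciPy 1.17.1). Correlations have no p. Replicate numbers follow deposit order and pair no samples. The number of arrays limits precision.

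The genes and lists were chosen with earlier results of these data known. Named in full are the genes of the list with the 6 largest differences, the 6 widest and the 3 narrowest SDs. Of other genes those named are Sirt6, the second list's genes with an unadjusted p under 0.05 and the 10 most alike to the mean of the list. Gene pairs, and second-list genes named for their correlation, were chosen after their values were seen. Alternatives were other filters, the mean of probes, normexp, an offset, array centring, limma without trend, robust or with array weights, cell lists as covariates, deposit order and each array left out.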

Additional observations from a re-analysis of the deposited data

Results flagged for a closer look

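In Ddx58, which encodes the RNA sensor RIG-I, PyMT/SIRT6 replicate 4 lay apart from the other tumours of its genotype. Its log2 intensity was 7.61, against 7.95 to 8.01 in the other 4 PyMT/SIRT6 tumours, and its gap to the nearest was 0.857 of the range of the group. Of 58 groups of values examined in this way it was the only one set apart, where chance alone sets apart about 1 in 20.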

How the results depend on the processing

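No setting gave an interferon response gene an adjusted p under 0.05 in limma, and adjusted p-values ran from 0.511 to 1.000 over 27 settings. Past the threshold over all features were 4 with the mean of the probes of each gene, with normexp (offset 16) and with array weights, 1 with earlier and later deposit order as a block, 0 without the 4 tumours high in skeletal muscle markers, 0 within the earlier or the later arrays in deposit order (chosen after seeing the data), and 1 to 3 with 1 array left out. The median difference ran from −0.31 to −0.10 with 1 array left out and was −0.12 in the earlier and −0.29 in the later arrays, and −0.29 with normexp. The median SD was 0.24 with the mean of the probes, 0.42 with normexp, 0.37 without the muscle-high tumours, 0.37 in the earlier and 0.24 in the later arrays, and 0.28 to 0.32 with 1 array left out. The median r was 0.81 without the muscle-high tumours, 0.82 in the earlier arrays, and 0.61 to 0.74 with 1 array left out. With 1 array left out, 22 to 29 genes were lower, 10 to 22 had the larger SD in PyMT/SIRT6, and 2 to 13 differed by more than the pooled SD, which 0 did without the muscle-high tumours. Shares of all features beside these pooled SD counts were not computed. The setting without the muscle-high tumours kept only replicates 2 and 3 of PyMT/SIRT6.

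Signs turned in some genes, Gbp2, Dhx58, Eif2ak2 and Gbp3 with differences beyond the median of the list among them. With array weights Bst2 was at 0.0020 and Ifi35 at 0.049. With the T and NK cell covariate Ifi35 was at 0.00016, with the macrophage covariate Iigp1 at −0.0029, and with the muscle covariate Bst2 at 0.033 and Ifi35 at 0.0052. Without the muscle-high tumours only replicates 2 and 3 of PyMT/SIRT6 were left. There Oasl1 was at 0.046, Dhx58 at 0.00088, Eif2ak2 at 0.024, Bst2 at 0.18, Gbp2 at 0.043 and Iigp1 at −0.033. In the earlier arrays Mx1 was at 0.025, Bst2 at 0.16 and Parp14 at 0.029, and in the later Ifi35 at 0.080. With 1 array left out, ranges that cross 0 were −0.27 to 0.18 for Bst2, −0.42 to 0.0016 for Gbp3, −0.12 to 0.077 for Ifi35, −0.0035 to 0.036 for Iigp1, −0.093 to 0.011 for Oas1a, −0.43 to 0.12 for Oas2 and −0.12 to 0.00065 for Rtp4. The cause was not tested. No paired analysis was possible because the labels give no replicate numbers.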
